A study of Arabidopsis thaliana with 4 samples.

Results

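The response of an Arabidopsis thaliana line labelled gpa1 to abscisic acid (ABA) was read from 2 of the 4 arrays of a series, 1 from gpa1 plants given ABA and 1 from gpa1 control plants. Both pools were whole plants, 10 days old, in the Ws-2 background, and carried the same T-DNA insertion. The treated pool had received 100 µM ABA for 3 h, and no treatment is given for the control pool. The other 2 arrays held WS plants, the Ws-2 accession without a labelled insertion, of the same age, given ABA in the same way or left as control. Each array was hybridised with RNA from a pool of 10 plants, so differences between single plants are averaged in it. The gpa1 plants came from 1 stock, and no other gpa1 allele was used. The members were all probe sets of the ATH1 array apart from its controls, 22746 of 22810. With 1 array per group there was no replicate and no test, and every fold below compares 2 pools of plants.

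ABA is the hormone that plants make in drying tissue and in maturing seeds. It closes stomata, holds back germination and growth, and switches on genes for protective proteins. It is bound by soluble receptors that block protein phosphatases, which frees protein kinases to act on ion channels and on bZIP transcription factors. GPA1 encodes the G protein alpha subunit, a membrane switch that takes part in the stomatal response to ABA. The series title sets the wild type beside a gpa1 mutant, and the values below show what ABA-treated gpa1 plants looked like across gene families.

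The label could not be checked on the array. The labels place the insertion in At3g26300, a locus listed as CYP71B34 and so a cytochrome P450, whereas GPA1 itself is AT2G26300. The probe set of GPA1 is unnamed here and was not analysed. CYP71B34 had an intensity of 105 with ABA and 117 without it in gpa1 plants, and 122 with ABA and 105 without it in WS plants, so its probe set gave like readings with and without the labelled insertion. The position of that probe set relative to the insertion was not examined. The plants are therefore called by their label, gpa1.

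Median intensity was 42.8 on the ABA array and 47.6 on the control array, and the 2%-trimmed mean was 100.0 on both. Of the probe sets, 30.9% with ABA and 29.8% without it lay at the floor, the 30th percentile of all values, to which lower intensities were raised. The 18 spike-in control probe sets above the floor were all brighter on the ABA array of the gpa1 pair, with a geometric mean of 484 with ABA and 339 without it, and all dimmer on the ABA array of the WS pair, at 293 with ABA and 513 without it. The ratio of the 3′ to the 5′ actin probe set, a reading of RNA quality, was 6.76 with ABA and 8.71 without it in gpa1, and 8.55 with ABA and 6.09 without it in WS. The part of these differences in the results was not tested. Green-tissue markers were bright on both gpa1 arrays, with a summed intensity over the 5 of 15 listed markers that were named of 16011 with ABA and 15600.5 without it, and none of the 5 at the floor. Root markers summed to 2554 with ABA and 2613 without it over the 3 of 12 that were named. For guard cells, pollen and seeds no listed marker was named here, so those cells could not be followed. In pooled whole plants, fewer cells of a type and less RNA per cell cannot be told apart.

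ABA-treated gpa1 plants differed from gpa1 control plants in both directions, with the larger differences mostly upwards. At least 2-fold higher were 1118 probe sets, 4.92% of all, and at least 2-fold lower were 1054, 4.63% of all. At 4-fold the balance was 331 higher (1.46%) and 85 lower (0.374%), and at 8-fold 110 higher and 13 lower. At 16-fold 35 probe sets were higher and 2 were lower, and at 32-fold 14 were higher and none was lower. Below 2-fold the order turned: at 1.5-fold 2221 probe sets were higher and 3313 lower. Among the 14768 probe sets above the floor on both arrays the median log2 difference was -0.14, with quartiles of -0.48 and 0.22. Large differences were thus mainly upwards, while the median probe set read slightly lower with ABA.

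**Figure D1:**
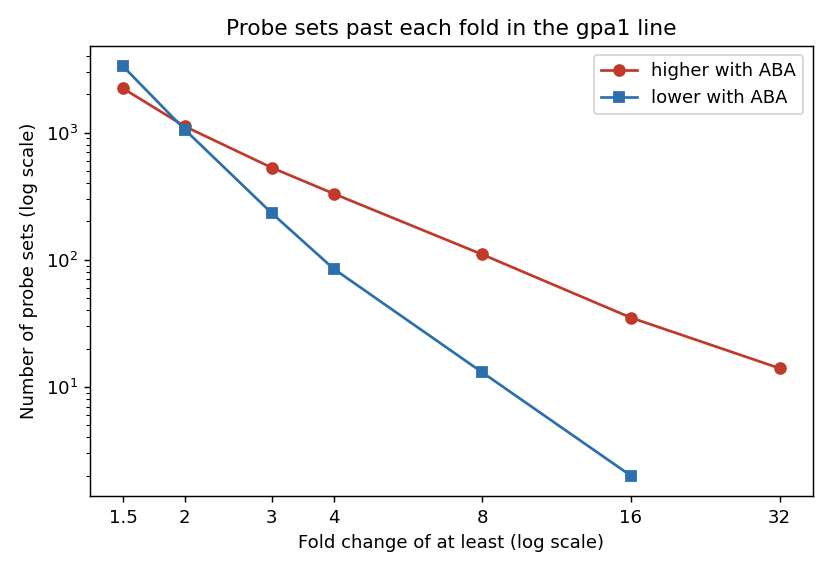
Number of probe sets (vertical axis, log scale) at or past each fold (horizontal axis, log scale) in the gpa1 line, for probe sets higher and lower with ABA. The lines cross between 1.5-fold, where 2221 were higher and 3313 lower, and 2-fold, where 1118 were higher and 1054 lower, and the gap widens towards 8-fold with 110 higher and 13 lower.

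Some of the differences began or ended at the floor, and their folds are lower bounds. Of the probe sets at least 2-fold higher, 192 lay at the floor without ABA, and of those at least 2-fold lower, 212 lay at the floor with ABA. On both arrays 5820 probe sets, 25.6% of all, were at the floor, and these could not pass in either direction. How often a probe set passed went with its brightness on the WS arrays, which entered the counts only through the floor. Of the probe sets with a WS mean intensity from 200 to 500, 12.1% were higher and 5.78% lower, whereas from the floor to 50, 3.22% were higher and 6.98% lower. Bright probe sets were thus more often higher than lower, and dim ones more often lower than higher. The WS mean includes the WS ABA array, and 906 of the 1118 higher probe sets were also at least 2-fold higher in WS. The bins are therefore not independent of the response to ABA.

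**Figure D2:**
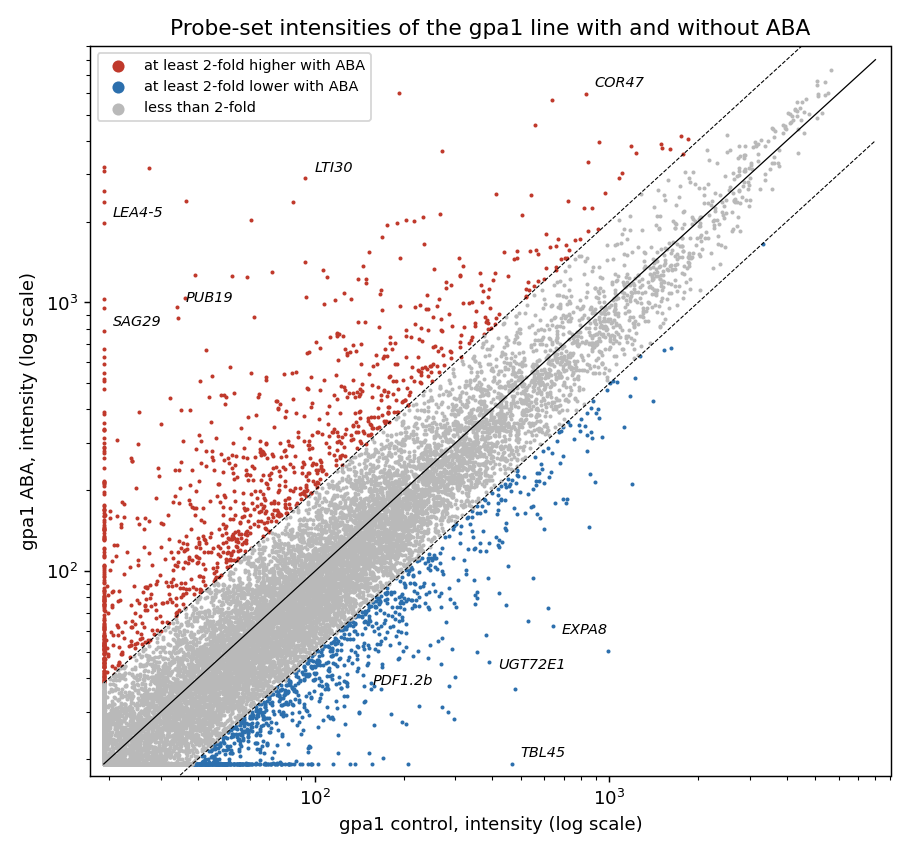
Intensity of each probe set on the gpa1 ABA array (vertical axis) against the gpa1 control array (horizontal axis), both on log scales and with values raised to the floor; dashed lines mark 2-fold. Points above the upper dashed line (1118) spread further from the diagonal than points below the lower one (1054), with LEA4-5 and SAG29 at the left edge, at the floor without ABA.

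Most of the genes with the largest differences upwards are known here by locus only. LTI30, a dehydrin that binds and shields membranes in cold and drought, had an intensity of 2916 with ABA and 92.7 without it, 31.5-fold higher. PUB19, a U-box ubiquitin ligase, read 962 with ABA and 34.0 without it, 28.3-fold higher. GSTU25, a glutathione transferase of the tau class, read 512 with ABA and 40.8 without it, 12.6-fold higher. Without the hormone PUB19 and GSTU25 lay below the median intensity of the control array, 47.6, and LTI30 lay above it. All 3 were bright with ABA. Of the 12 highest probe sets above the floor on both arrays, the other 9 had a locus name only, among them AT4G33550 at 1035 with ABA and 36.2 without it (28.6-fold), AT2G37870 at 874 and 34.4 (25.4-fold), AT1G05340 at 1254 and 52.5 (23.9-fold) and AT1G62510 at 3645 and 269.5 (13.5-fold). The other 5 of them were between 11.2-fold and 18.1-fold higher.

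Genes at the floor without ABA reached high intensities with it. AT3G02480 read 3072 with ABA, at least 160-fold higher. LEA4-5, a late embryogenesis abundant (LEA) protein of dry seeds and drying leaves, read 1980 with ABA, at least 103-fold higher. SAG29, a sugar transporter also known as SWEET15, read 951 with ABA, at least 49.5-fold higher. It is also the 1 of 3 listed markers of senescing leaves that was named here, and the part of such leaves in the results was not tested. COR15A, a chloroplast protein that protects membranes in freezing, read 629 with ABA, at least 32.8-fold higher. AT3G17520 and AT5G28520 followed the same pattern, at 1027 with ABA (at least 53.5-fold) and 786 with ABA (at least 41.0-fold). All 6 were at the floor in gpa1 control plants.

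The largest differences downwards were smaller and took in cell wall genes. EXPA8, an expansin, a protein that loosens cell walls, had an intensity of 62.4 with ABA and 642 without it, 10.3-fold lower. UGT72E1, which adds glucose to lignin precursors, read 46.0 with ABA and 390 without it, 8.49-fold lower. PDF1.2b, a plant defensin, read 40.3 with ABA and 300.0 without it, 7.44-fold lower. The other 9 of the 12 lowest had a locus name only, led by AT4G15390 at 28.1 with ABA and 296 without it (10.5-fold lower) and AT1G73600 at 30.0 and 283 (9.44-fold lower), and the remaining 7 were between 5.90-fold and 8.42-fold lower. All 12 were well below their control reading but above the floor.

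Among genes that lay at the floor with ABA, TBL45 stood at 465 without it, at least 24.2-fold lower with ABA. TBL proteins acetylate cell wall polysaccharides. AT5G63180 read 207 without ABA and was at least 10.8-fold lower with it, and AT4G32605 read 116 without ABA and was at least 6.02-fold lower. The bZIP factor BZIP61 read 97.4 without ABA and was at least 5.07-fold lower with it. THI2.2, a thionin with antimicrobial action, read 90.5 without ABA and was at least 4.71-fold lower with it, and AT5G10290 read 89.1 and was at least 4.64-fold lower. For these 6 the lower reading is only an upper limit.

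**Figure D3:**
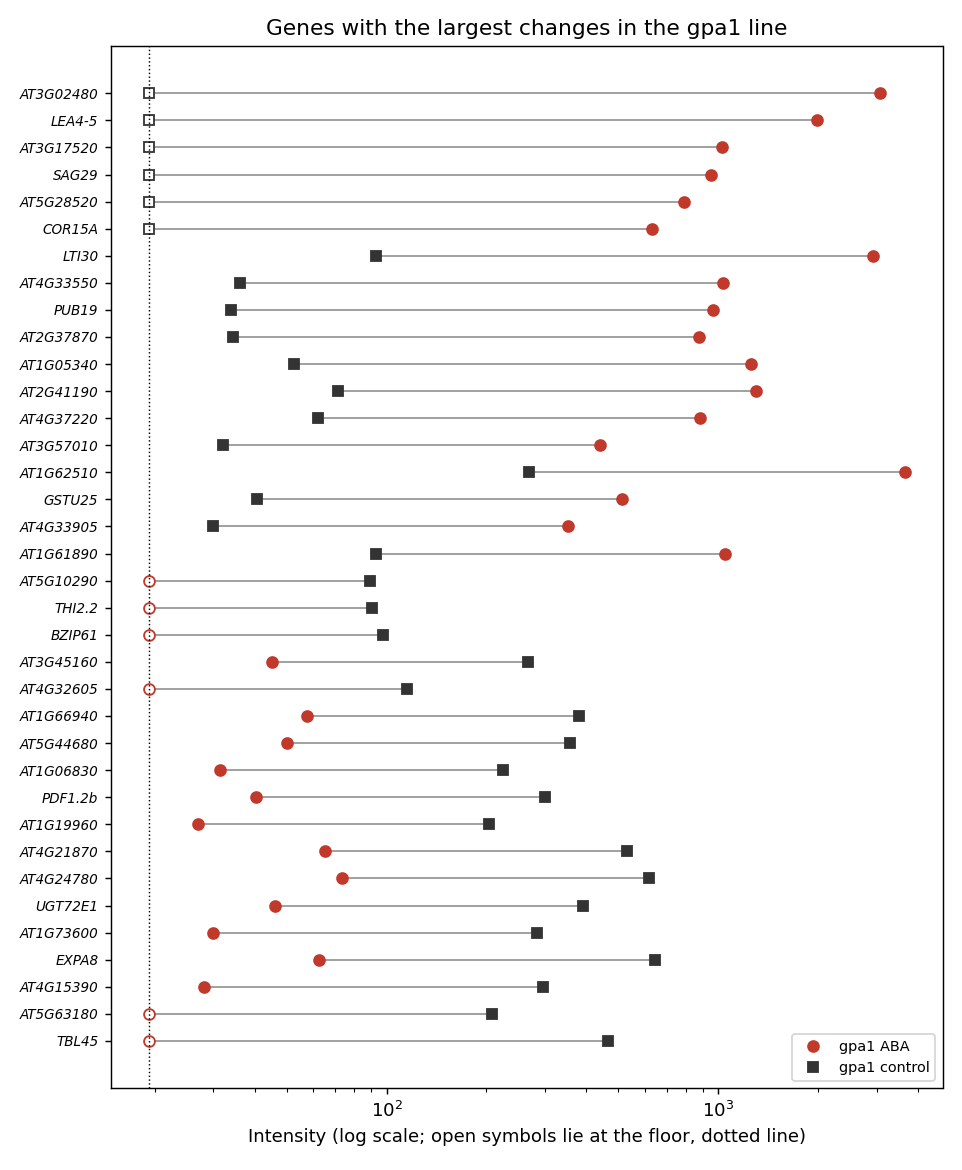
Intensity (horizontal axis, log scale) on the gpa1 ABA array (circles) and the gpa1 control array (squares) for the 18 genes with the largest differences in each direction; open symbols lie at the floor, the dotted line. The genes higher with ABA reach from 353 for AT4G33905 to 3645 for AT1G62510 on the ABA array, and the genes lower with ABA lie between the floor and 73.3 for AT4G24780 there.

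Named genes were then grouped into 57 families of 959 probe sets in all. With ABA 63 of these members, 6.57%, were at least 2-fold higher, and 72, 7.51%, at least 2-fold lower, against 4.92% and 4.63% of all probe sets. In 10 of the 57 families no member passed 2-fold. The families are given by role below, with counts and median log2 differences. The median over all probe sets was 0, held there by the many at the floor on both arrays. Among probe sets above the floor on both arrays it was -0.14, the nearer comparison for families with few members at the floor.

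Protective proteins had the highest family median. Of 12 LEA, dehydrin, cold-regulated and drought-induced proteins, none was 2-fold lower with ABA and 2 were at the floor on both arrays. The median log2 difference was 1.59. At least 2-fold higher with ABA were 6 (50%), against 4.92% of all probe sets. Beside LEA4-5, COR15A and LTI30 these were COR47, a dehydrin, at 5941 with ABA and 831 without it (7.15-fold higher), COR15B, the close relative of COR15A, at 109 and 20.5 (5.31-fold higher), and LEA18 at 195 with ABA and at the floor without it (at least 10.1-fold higher). COR47 was already well above the floor without ABA. The members below 2-fold were AtLEA4-1, at 32.8 with ABA and at the floor without it, DI19, at 954 with ABA and 869 without it, DI21, at 59.0 and 72.4, and HVA22C, at 94.4 and 132. DI19, a zinc finger protein, is in the list by its name.

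Chaperones did not follow the LEA proteins. Of 18 chaperones and heat shock proteins 2 were at least 2-fold higher (11.1%) and 1 lower (5.56%), against 4.92% and 4.63% of all probe sets. The median log2 difference was -0.30. ATHSP22.0, a small heat shock protein of the endoplasmic reticulum, read 57.7 with ABA and 20.6 without it (2.80-fold higher). HSA32, a protein for long-term heat tolerance, read 120.5 with ABA and 55.8 without it (2.16-fold higher). Cpn60beta2, a chloroplast chaperonin subunit, read 97.8 with ABA and 272 without it (2.78-fold lower). Chaperone readings thus moved in both directions, with most of them within 2-fold.

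Transcription factor families went past 2-fold in both directions. Of 17 bZIP factors 1 was higher (5.88%) and 2 were lower (11.8%), against 4.92% and 4.63% of all probe sets. BZIP60, which acts when proteins misfold in the endoplasmic reticulum, read 478 with ABA and 192 without it, 2.49-fold higher. FD, the bZIP partner of the flowering signal FT, read 20.4 with ABA and 45.3 without it, 2.22-fold lower, and BZIP61 lay at the floor with ABA. Among 19 WRKY, NAC, zinc finger and AP2/ERF factors 2 were higher and 2 lower, 10.5% each. WRKY6, a factor of senescence and nutrient shortage, read 274 with ABA and 48.0 without it, 5.71-fold higher. STZ, the salt tolerance zinc finger factor also called ZAT10, read 278 with ABA and 66.8 without it, 4.17-fold higher. TINY (listed as tny), an AP2 factor, read 35.7 with ABA and 79.2 without it, and WRKY47 read 28.4 and 70.0, so both were lower and dim. In that list WRKY6 and STZ were each over 4-fold higher, and TINY and WRKY47 were each under 3-fold lower.

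Of 19 bHLH factors 2 were higher and 2 lower, again 10.5% each, and all 4 were within 3-fold. UPB1, which sets the balance of reactive oxygen in roots, read 132 with ABA and 51.8 without it (2.54-fold higher). PYE, a regulator of iron shortage, read 173 with ABA and 79.3 without it (2.19-fold higher). MYC4, a factor of jasmonate signalling, read 27.3 with ABA and 73.8 without it (2.70-fold lower), and ATMYC1, which acts in epidermal cells, read 22.1 and 59.4 (2.69-fold lower).

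Among hormone families, auxin genes were the ones with members past 2-fold. Of 20 auxin genes 4 were higher (20%) and 1 was lower (5%), against 4.92% and 4.63% of all probe sets. On both arrays 8 lay at the floor. GH3.3 and WES1, enzymes that join auxin to amino acids, read 183 with ABA and 53.7 without it (3.40-fold higher) and 619 with ABA and 289 without it (2.14-fold higher). HAT2, a homeodomain factor induced by auxin, read 528 with ABA and 179 without it, 2.96-fold higher. The Aux/IAA repressors went both ways: IAA30 read 51.5 with ABA and lay at the floor without it, at least 2.68-fold higher, and IAA29 read 32 with ABA and 80.6 without it, 2.52-fold lower. No member passed 2-fold among 14 gibberellin, brassinosteroid and cytokinin genes or among 9 jasmonate, salicylate and ethylene genes, of which 7 and 4 were at the floor on both arrays. GID1C, a gibberellin receptor, came nearest, at the floor with ABA and 36.9 without it. EIN3, the main factor of ethylene signalling, read 468 with ABA and 366 without it, under 2-fold.

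Peptides, receptors and calcium proteins had single members past 2-fold. RALFL32, a RALF-like signal peptide, read 287 with ABA and 97.9 without it, 2.93-fold higher. It was the 1 member past 2-fold among 19 RALF-like, CLE and related peptides (5.26%). NCRK, a receptor-like kinase, lay at the floor with ABA and read 57.0 without it, at least 2.97-fold lower. It was the 1 member past 2-fold among 19 receptor-like kinases (5.26%). Both shares lay near those of all probe sets, 4.92% higher and 4.63% lower. The calmodulin-like protein CML38 read 81.1 with ABA and lay at the floor without it, at least 4.22-fold higher, while CML30 lay at the floor with ABA and read 42.6 without it, at least 2.22-fold lower. These were 2 of 7 calmodulin-like proteins. None of 8 glutamate receptor-like channels passed 2-fold, all within a log2 difference of 0.35 of 0.

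Ubiquitin genes had PUB19 far above the rest. It was the 1 member past 2-fold among 21 U-box and RING ligases, whose median log2 difference was -0.20. UBC32, a conjugating enzyme of the endoplasmic reticulum, read 670 with ABA and 183 without it, 3.66-fold higher, the 1 member past 2-fold among 13 conjugating enzymes. Of 12 ubiquitin proteases none passed 2-fold, and UBP23 lay furthest out, at 102.5 with ABA and 186 without it. Higher readings were thus found for 1 of 21 ligases (4.76%) and 1 of 13 conjugating enzymes (7.69%), against 4.92% of all probe sets. The remaining members of the 3 families stayed within 2-fold.

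Sugar transporters past 2-fold in gpa1 were higher more often than lower. Of 20 SWEET, SFP and TMT genes 4 were higher (20%) and 2 lower (10%), against 4.92% and 4.63% of all probe sets. The median log2 difference was 0.34, or 0 with the floor at the 45th percentile. In WS 3 of the 20 were higher and 3 lower. SAG29 led the higher members in gpa1. SWEET4, a hexose carrier, read 110 with ABA and 25.1 without it (4.37-fold higher), and SFP1, a sugar carrier, read 430 and 198 (2.17-fold higher). At the vacuolar membrane, TMT2 read 250 with ABA and 101 without it (2.47-fold higher), whereas TMT1 read 332 and 685 (2.06-fold lower) and SWEET16 read 50.7 and 164 (3.23-fold lower). These 3 vacuolar sugar carriers, named because they passed 2-fold, thus went both ways. SWEET11, which loads sucrose into the phloem, stayed bright, at 1097 with ABA and 841 without it.

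Other transport families had 1 or 2 members past 2-fold in a direction. OCT1, a carrier of organic cations, read 452 with ABA and 48.0 without it, 9.41-fold higher, the 1 member past 2-fold among 8 carriers of organic cations, nitrate and like solutes (12.5%). MTP11, a manganese carrier, read 756.5 with ABA and 313 without it, 2.42-fold higher. CHX20, a cation exchanger known from guard cells, lay at the floor with ABA and read 38.7 without it, at least 2.02-fold lower, and CHX16 lay at the floor with ABA and read 54.0 without it, at least 2.81-fold lower. Of the 12 cation and metal transporters 1 was thus higher (8.33%), 2 were lower (16.7%) and 5 were at the floor on both arrays. VHA-A2 and VHA-A3, proton pump subunits of the vacuole, read 243 and 423 with ABA and 160 and 462.5 without it, both within 2-fold.

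Expansins were the cell wall family with the widest spread. Of 18 probe sets 5 were at least 2-fold higher (27.8%) and 3 lower (16.7%), against 4.92% and 4.63% of all probe sets. On both arrays 2 were at the floor, and the median log2 difference was -0.01, or 0.07 with median centring. The expansin-like genes were all among the higher ones. EXLA1 read 421 with ABA and 76.1 without it (5.53-fold), EXLA2 154 and 27.4 (5.63-fold), EXLB1 651 and 93.7 (6.95-fold), and EXLA3 47.1 with ABA against the floor (at least 2.45-fold). EXPA16 was the 1 alpha-expansin among the higher members, at 300.1 with ABA and at the floor without it, at least 15.6-fold higher. Below their control readings were EXPA8, EXPB3, a beta-expansin at 47.5 with ABA and 243 without it (5.11-fold lower), and EXPA15 at 73.8 and 190.5 (2.58-fold lower). Under 2-fold were EXPA4 at 118 with ABA and 177 without it and the root hair gene EXPA18 at 80.4 and 81.5. The family therefore split by type: all 4 expansin-like genes were higher, while alpha-expansins went both ways. The only beta-expansin past 2-fold, EXPB3, was lower.

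Other wall enzymes were lower more often than higher. Of all probe sets 4.92% were higher and 4.63% lower. The shares were 20% and 20% for xyloglucan endotransglucosylases, 0% and 20% for GH9 endoglucanases, and 4.55% and 13.6% for TBL proteins. Of 10 xyloglucan endotransglucosylases, which cut and rejoin xyloglucan chains, 2 were higher, XTH18 at 625 with ABA and 224 without it (2.79-fold) and XTH32 at 179 and 70.7 (2.54-fold), and 2 were lower, XTH20 at 47.0 and 121 (2.57-fold) and XTH26 at the floor with ABA and 60.6 without it (at least 3.16-fold). The GH9 endoglucanases, which trim cellulose, had none higher and 3 of 15 lower. These were GH9B13 at 37.3 with ABA and 159 without it (4.25-fold), GH9C2 at 69.3 and 194 (2.80-fold) and GH9B8 at 33.9 and 76.9 (2.27-fold). Of 22 TBL proteins 1 was higher, TBL37 at 463 with ABA and 177 without it (2.62-fold), and 3 were lower, TBL45, TBL36 at 48.5 and 216 (4.46-fold) and TBL32 at the floor with ABA and 42.2 without it (at least 2.2-fold). The median log2 difference of the TBL list was -0.27.

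Pectin methylesterase genes also went both ways, with ATPMEPCRB at 64.4 with ABA and 25.9 without it (2.49-fold higher) and ATPMEPCRD at the floor with ABA and 41.6 without it (at least 2.17-fold lower). Of 4 SKU5-similar proteins 2 were lower, sks16 at 29.0 with ABA and 66.8 without it (2.30-fold) and sks15 at the floor with ABA and 58.2 without it (at least 3.03-fold). Among 14 genes for the synthesis of wall polysaccharides, none passed 2-fold. XEG113 lay lowest there, at 101 with ABA and 174 without it, and COB, which orients cellulose, read 422 and 563. The wall synthesis genes of that list thus stayed within 2-fold.

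Cytoskeleton genes were lower where they passed. All 7 tubulin probe sets read lower with ABA, with a median log2 difference of -0.60. At least 2-fold lower were 3 of them (42.9%), against 4.63% of all probe sets. TUB1 read 121 with ABA and 346 without it (2.85-fold lower), TUA1 32.6 and 80.1 (2.46-fold lower) and TUB5 212 and 458 (2.16-fold lower). TUB9 differed least, at 389 with ABA and 429 without it. Of 40 myosins, IQD and NET proteins and their like, which tie the cytoskeleton to membranes and to calcium signals, none was higher. Lower were 5 of them (12.5%), against 4.63% of all probe sets. They were NET1A at 25.7 with ABA and 75.1 without it, NET1B at 26.7 and 66.8, iqd21 at 44.3 and 118.5, IQD22 at 26.1 and 52.9, and the microtubule bundler ATMAP65-6 at 102 and 214, all between 2.03-fold and 2.92-fold lower.

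Further growth-related families had 1 member each above 2-fold. The linker histone HIS1-3, known as a drought-responsive histone, read 232 with ABA and 70.7 without it, 3.28-fold higher, among 8 histone probe sets. TET9, a tetraspanin, read 64.8 with ABA and 22.7 without it, 2.85-fold higher, among 15. TRM19 read 206 with ABA and 102 without it, 2.02-fold higher, among 14 TRM proteins. These were 12.5% of the histones, 6.67% of the tetraspanins and 7.14% of the TRM proteins, against 4.92% of all probe sets. No member of these 3 families was 2-fold lower.

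**Figure D4:**
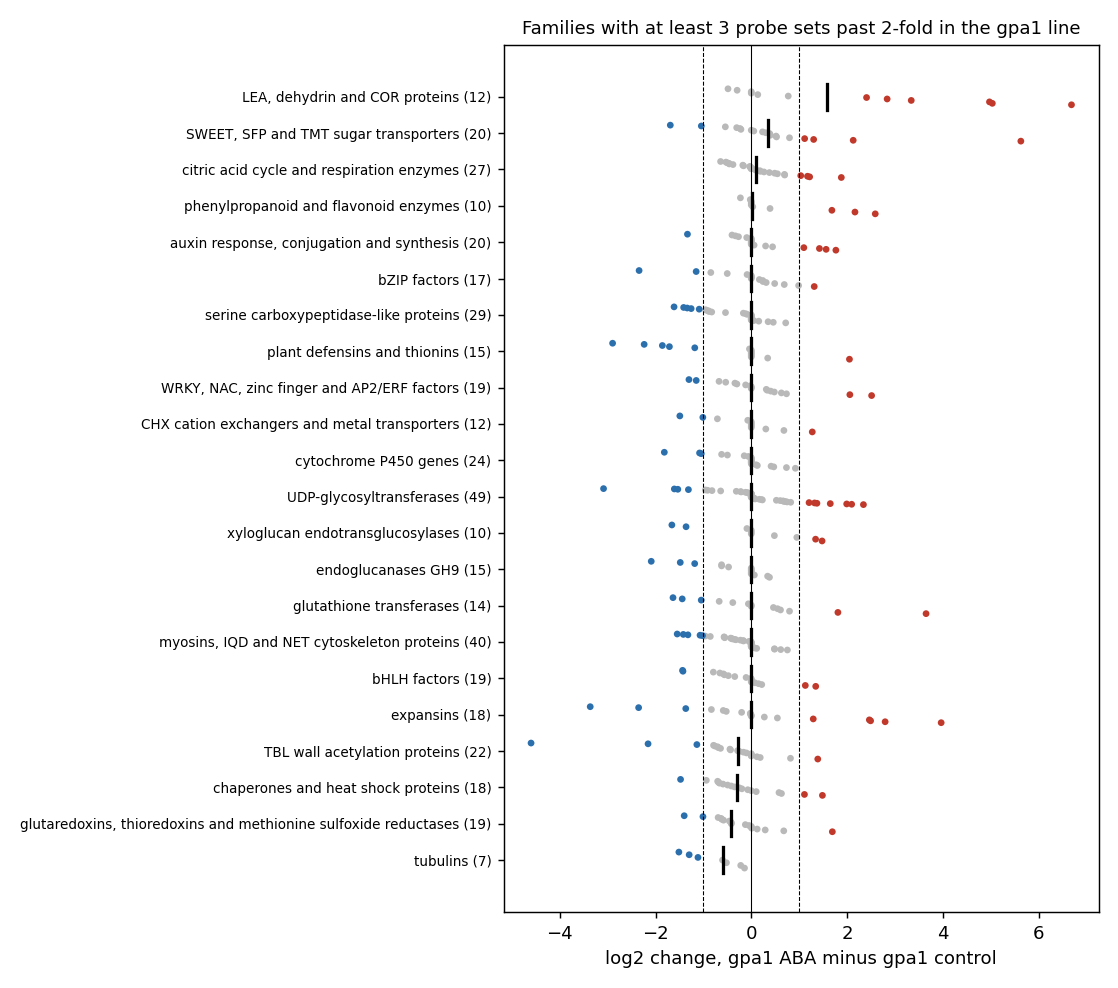
Log2 difference between the gpa1 ABA array and the gpa1 control array (horizontal axis) for each probe set of the families with at least 3 members past 2-fold, with family size in brackets; points are probe sets, black bars are family medians and dashed lines mark 2-fold. LEA, dehydrin and COR proteins have the highest median (1.59) and tubulins the lowest (-0.60), and expansins reach far to both sides around a median of -0.01.

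UDP-glycosyltransferases, which attach sugars to hormones, lignin precursors and foreign compounds, were the largest enzyme family. Of 49, 7 were higher (14.3%) and 4 lower (8.16%), against 4.92% and 4.63% of all probe sets. On both arrays 12 were at the floor, and the median was 0. UGT73B5 read 161 with ABA and 31.8 without it (5.07-fold higher), UGT85A5 278.5 and 65.1 (4.28-fold higher) and UGT87A2 640 and 161 (3.98-fold higher). UGT84A3, which glucosylates sinapate, read 244.5 with ABA and 77.9 without it (3.14-fold higher). UGT76E11, GT72B1 and UGT76B1, the last of which acts on immune signals, were between 2.31-fold and 2.59-fold higher. On the lower side, UGT72E1 and UGT72E2, a pair that glucosylates lignin precursors, read 46.0 and 54.9 with ABA and 390 and 167 without it. UGT78D1, a flavonol rhamnosyltransferase, and UGT85A4 lay at the floor with ABA and read 55.6 and 47.7 without it. Enzymes of this family were thus found on both sides, the highest at 5.07-fold and the lowest at 8.49-fold.

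Enzymes of phenylpropanoid metabolism were higher where they passed. Of 10, 3 were higher (30%, against 4.92% of all probe sets) and none lower. CCR2, a cinnamoyl-CoA reductase of lignin synthesis, read 125 with ABA and 20.8 without it, 6.02-fold higher. CCOAMT, a caffeoyl-CoA methyltransferase, read 88.4 with ABA and 19.7 without it, 4.49-fold higher. CHIL, a chalcone isomerase-like protein, read 194 with ABA and 60.5 without it, 3.21-fold higher. CCR2 and CCOAMT lay just above the floor without ABA, so their folds lean on readings at the dim end.

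Beta-glucosidases had 1 of 22 past 2-fold (4.55%), near the 4.92% of all probe sets that were higher. This was BGLU24, at 115 with ABA and at the floor without it, at least 5.99-fold higher. Cytochrome P450 genes had none of 24 higher and 3 lower (12.5%), against 4.63% of all probe sets lower. These were CYP71B37 at the floor with ABA and 67.6 without it (at least 3.52-fold), CYP71B5 at 52.6 and 111 (2.11-fold) and CYP78A9 at 30.6 and 63.1 (2.06-fold). In the wax and lipid list of 15, 1 member passed 2-fold, on the lower side (6.67%, against 4.63% of all probe sets). It was TSC10B, a sphingolipid enzyme, at 26.7 with ABA and 55.8 without it, 2.09-fold lower. ALDH7B4, an aldehyde dehydrogenase that removes reactive aldehydes under drought, was the 1 of 8 in its family past 2-fold, at 2528 with ABA and 411 without it, 6.15-fold higher, beside a family median of -0.33. Its 7 relatives stayed within 2-fold.

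In carbon and energy metabolism the differences past 2-fold were mainly upwards. Of 27 citric acid cycle and respiration genes 4 were higher (14.8%, against 4.92% of all probe sets) and none lower. NDB2, an NADH dehydrogenase on the outer face of the inner mitochondrial membrane that bypasses complex I, read 410 with ABA and 111 without it, 3.68-fold higher. Its relative NDB4 and ICL, the isocitrate lyase of the glyoxylate cycle, read 39.3 and 44.7 with ABA and lay at the floor without it, at least 2.05-fold and 2.33-fold higher. CYTC-2, a cytochrome c, read 382 with ABA and 169 without it, 2.26-fold higher. In starch and sucrose metabolism APL3, a subunit of ADP-glucose pyrophosphorylase, read 78.7 with ABA and 32.2 without it (2.44-fold higher), and ATSPS4F, a sucrose phosphate synthase, read 76.5 and 236 (3.09-fold lower). The 9 genes of that list had a median log2 difference of -0.43.

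Redox families split within themselves. Of 14 glutathione transferases 2 were higher (14.3%) and 3 lower (21.4%), against 4.92% and 4.63% of all probe sets. GSTU16 read 293 with ABA and 83.7 without it, 3.51-fold higher, and stood second to GSTU25. GSTU20, GSTU27 and GSTU28 read 203, 202 and 38.0 with ABA and 418, 549 and 118 without it, from 2.06-fold to 3.11-fold lower, so members of the 1 tau class lay on both sides. Of 19 glutaredoxins, thioredoxins and methionine sulfoxide reductases, GRX480, a glutaredoxin linked to salicylate signalling, read 96.7 with ABA and 29.9 without it (3.23-fold higher), and MSRB5 and MSRB6, which repair oxidised methionine, read 510 and 60.0 with ABA and 1026 and 158 without it (2.01-fold and 2.64-fold lower). The peroxidase Prx37 read 167 with ABA and 378 without it, 2.26-fold lower, alone among 5 peroxidases.

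Defensins and thionins, small secreted antimicrobial proteins, were mostly lower or at the floor. Of 15, 5 were lower (33.3%) and 1 was higher (6.67%), against 4.63% and 4.92% of all probe sets. On both arrays 7 were at the floor. PDF1.2, a defensin induced by jasmonate and ethylene, lay at the floor with ABA and read 62.8 without it, at least 3.27-fold lower. PDF1.4 lay at the floor with ABA and read 43.5 without it, at least 2.27-fold lower, and PDF2.5 read 73.9 with ABA and 268 without it, 3.62-fold lower. PDF2.1 went the other way, at 162 with ABA and 39.1 without it, 4.14-fold higher. Of the remaining bright members, LCR68 read 1135 with ABA and 895 without it, and LCR69 read 931 and 956, both within 2-fold. PDF1.2 and PDF1.2b are near-identical copies, so a probe set of one may also read RNA of the other and their 2 readings cannot be taken as separate.

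Photosynthesis genes stayed bright and mostly within 2-fold. Of 21 nuclear genes of thylakoid, light harvesting and the Calvin cycle none was higher and 2 were lower (9.52%, against 4.63% of all probe sets). The median log2 difference was -0.11, or -0.30 with quantile normalization. RCA, the activase of Rubisco, read 5173 with ABA and 4330 without it, and LHCB4.1, a light-harvesting protein, read 4285 and 4567. LIL3:1, which anchors chlorophyll synthesis in the membrane, read 119 with ABA and 363.5 without it, 3.06-fold lower, and its relative LIL3:2 read 368 and 700, 1.90-fold lower. CaS, a calcium sensor of the thylakoid, read 502 with ABA and 1007 without it, 2.01-fold lower. RCA and LHCB4.1 thus differed little, CaS and LIL3:2 read lower though bright without ABA, and LIL3:1 differed most.

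Tetrapyrrole genes, which lead to chlorophyll and haem, read lower more often than higher. Of 11, none was 2-fold higher and 2 were lower (18.2%, against 4.63% of all probe sets). On both arrays 3 were at the floor, and the median log2 difference was -0.41. HEME2 read 108 with ABA and 267 without it (2.47-fold lower), CHLM, the magnesium protoporphyrin methyltransferase, read 431.5 and 879 (2.04-fold lower), and PORB, which makes chlorophyllide in light, read 514 and 985 (1.92-fold lower). HEMA2, a glutamyl-tRNA reductase, had the highest difference, at 84.9 with ABA and 48.5 without it. Of the 8 members not at the floor on both arrays, 7 read lower with ABA.

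The genes of the organelle genomes stood close to their control readings. None of 69 chloroplast-encoded probe sets was 2-fold higher and 1 was lower, with a median log2 difference of 0.07, or -0.07 with quantile normalization. The exception was ndhF, at 24.9 with ABA and 54.0 without it, 2.17-fold lower. At the upper end, psbN read 180 with ABA and 101 without it and psaA 1858 and 1173. None of 23 mitochondria-encoded probe sets passed 2-fold. Labelling of these RNAs started at an oligo(dT) primer, and plastid RNAs carry few poly(A) tails, so their readings rest on whatever part was primed.

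Families of proteases and of autophagy differed in the direction of their few members past 2-fold. Of 29 serine carboxypeptidase-like proteins none was higher and 10 were at the floor on both arrays. Lower were 5 (17.2%, against 4.63% of all probe sets), all between 2.12-fold and 3.06-fold. They were SCPL45 at 54.4 with ABA and 116 without it, scpl35 at 49.3 and 118, SCPL27 at 25.8 and 65.2, scpl42 at the floor with ABA and 51.1 without it, and scpl50 at 22.5 and 68.8. SBT4.12, a subtilase, read 48.7 with ABA and 139 without it, 2.86-fold lower, alone among 11. By contrast, BETA-VPE, a protease that processes proteins in the vacuole, read 133 with ABA and 40.2 without it (3.30-fold higher). ATG8H, a small protein of the autophagy membrane and not a protease, read 515 and 199 (2.59-fold higher). They were the 1 member past 2-fold among 4 vacuolar processing enzymes and among 10 autophagy genes (10%), against 4.92% of all probe sets higher. Among 15 exocyst and secretion proteins and 22 ESCRT and PRA1 proteins none passed 2-fold, with PRA8 highest at 684 with ABA and 371 without it.

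In the machinery of gene expression the 4 members past 2-fold were lower. They were 11.1% of the RNA polymerase and LSM subunits and 12.5% of the pentatricopeptide repeat proteins, against 4.63% of all probe sets. Of 18 RNA polymerase and LSM subunits none was 2-fold higher and 2 were lower, NRPB9B at 37.1 with ABA and 83.3 without it (2.25-fold) and LSM3A at 22.9 and 47.8 (2.09-fold), and the median log2 difference was -0.45. Of 16 pentatricopeptide repeat proteins, which process organelle RNA, PPR336 read 31.8 with ABA and 71.4 without it (2.25-fold lower) and PPR596 read 75.9 and 165.5 (2.18-fold lower). None of 9 chromatin remodellers passed 2-fold, and 5 of them were at the floor on both arrays.

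The WS pair of arrays shows how the same probe sets read in plants without the labelled insertion. In WS 1251 probe sets, 5.5% of all, were at least 2-fold higher with ABA and 1054, 4.63%, at least 2-fold lower. Of the 1118 probe sets higher in gpa1, 906 (81.0%) were also at least 2-fold higher in WS, and of the 1054 lower in gpa1, 551 (52.3%) were also at least 2-fold lower there. Of the 4-fold sets of gpa1, 326 of 331 higher and 79 of 85 lower also passed 2-fold the same way in WS. Of the 36 genes with the largest differences in gpa1, all 18 higher ones and 16 of the 18 lower ones did. Differences between genotypes at the same treatment were fewer: 288 probe sets (1.27%) differed at least 2-fold either way between gpa1 and WS plants given ABA, and 226 (0.994%) between gpa1 and WS control plants. None of these differences was tested.

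The 2 of these 18 lower genes that did not pass in WS, PDF1.2b and THI2.2, are defence genes. PDF1.2b read 40.3 with ABA and 300.0 without it in gpa1 plants, and 30.1 with ABA and 26.5 without it in WS plants. Only the gpa1 control pool was high. THI2.2 lay at the floor with ABA and read 90.5 without it in gpa1 plants, and read 68.6 with ABA and 88.2 without it in WS plants, so there the gpa1 ABA pool was the low one. PDF1.2 read 62.8 in gpa1 control plants and lay at the floor on the gpa1 ABA array and both WS arrays. Among the serine carboxypeptidase-like proteins, 2 of the 5 lower in gpa1 were also 2-fold lower in WS, where scpl42 read 55.7 with ABA and 77.1 without it. Whether these patterns belong to the genotype or to single pools cannot be told apart with 1 pool per group.

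Protective genes and expansins past 2-fold in gpa1 went the same way in both genotypes. EXPA8 was lower in both, at 62.4 with ABA and 642 without it in gpa1 plants and at the floor with ABA and 567 without it in WS plants. LTI30 read 2916 with ABA and 92.7 without it in gpa1 plants, and 3139 with ABA and 80.9 without it in WS plants. All 6 protective genes and all 8 expansins past 2-fold in gpa1 were past 2-fold the same way in WS. The reverse did not hold: 6 expansins were at least 2-fold lower in WS, against 3 in gpa1. EXPA4, EXPA9 and EXPA18 passed in WS only, with log2 differences of -1.19, -1.39 and -1.27 there and -0.59, -0.52 and -0.02 in gpa1. The difference between the genotypes was not tested. AT5G28520 was also higher in both, with 786 in gpa1 plants and 360.5 in WS plants given ABA. Over all families, 55 of the 63 higher members (87.3%) and 44 of the 72 lower members (61.1%) passed 2-fold the same way in WS.

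**Figure D5:**
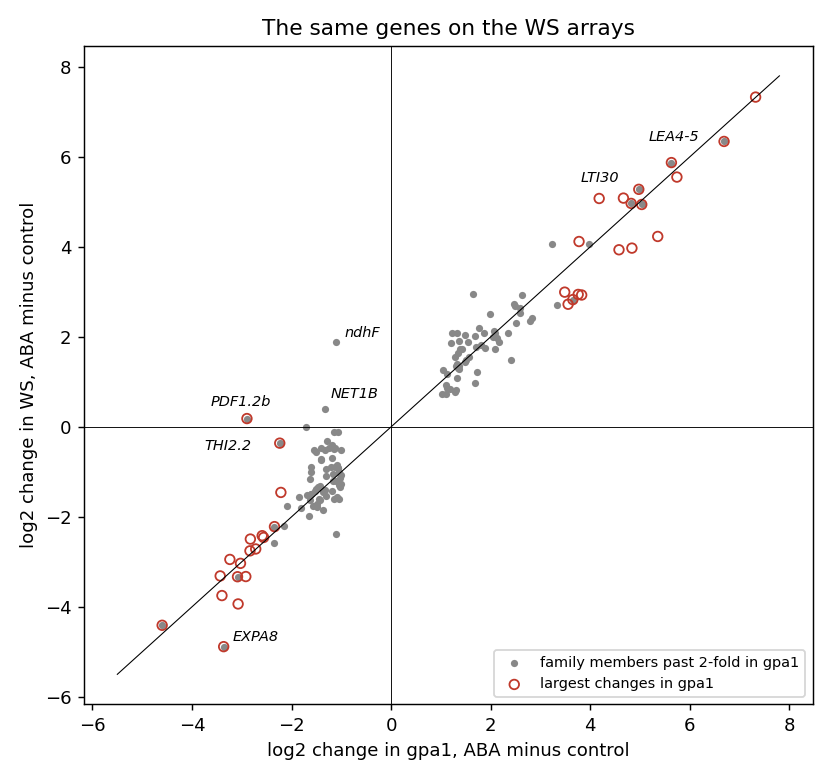
Log2 difference between ABA and control in WS (vertical axis) against the same in gpa1 (horizontal axis) for family members past 2-fold in gpa1 (grey points) and for the genes with the largest differences in gpa1 (red rings); the diagonal marks equal differences. Most of the points lie near the diagonal, and PDF1.2b (-2.90 in gpa1, 0.18 in WS) and ndhF (-1.12 in gpa1, 1.88 in WS) lie far above it.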

How the data were processed

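Transcripts of 4 pools of plants were measured on Affymetrix ATH1 arrays, and the 2 gpa1 arrays carry the results. The deposited table holds intensities on a linear scale, which the authors had brought to a common level, since the 2%-trimmed mean is 100.0 on each array; the summarising program is not given in the sources analysed here. Left out were 64 control probe sets. Intensities below 19.2, the 30th percentile over all 4 arrays, were raised to it, and the log2 value of ABA minus control was taken per probe set with Python 3.11.15, numpy 2.4.6 and pandas 2.3.3. A fold against a value at the floor is a lower bound. Counts are of probe sets past 2-fold, without a filter. Code for the log2 difference and for quantile normalization was tested on simulated data, and the counting step was not. The number of arrays limits the precision, and no p-value was computed.

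Probe sets were named through the platform annotation and RefSeq TAIR10.1: 13513 had 1 gene, 503 had several and 8730 were not listed, and 1580 of the first carried a symbol other than the locus. Genes named in the text were the 12 highest and 12 lowest above the floor on both arrays, the 6 largest bounds per direction, and up to 4 members per family with the largest difference, with others given beside them for context after their values were seen. Members and lists were chosen with earlier results of these data known, and families were defined by symbol and corrected for gene identity after values had been seen. Alternatives were other floors, median centring, quantile normalization, a filter on dim probe sets and other folds. Promoter motifs were planned and were not analysed here. The result of 1 of the 57 families is not reported here.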

Additional observations from a re-analysis of the deposited data

Results flagged for a closer look

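Of the 1054 probe sets at least 2-fold lower with ABA in gpa1 plants, 4 were at least 2-fold higher with ABA in WS plants, and none of the 1118 higher ones was at least 2-fold lower there. The difference between the genotypes was not tested for any of them. The chloroplast gene ndhF, a subunit of the NDH complex, had a log2 difference of -1.12 in gpa1 plants, at 24.9 with ABA and 54.0 without it, and of 1.88 in WS plants, at 81.4 and 22.1. AT1G65000 had -1.21 in gpa1 plants, at 26.3 and 61.0, and 1.36 in WS plants, at 49.3 with ABA and at the floor without it. A probe set that is unnamed here had -1.12 in gpa1 plants, at 24.3 and 52.8, and 1.02 in WS plants, at 40.5 and 20.0. Another unnamed probe set had -1.06 in gpa1 plants, at 22.7 and 47.3, and 1.11 in WS plants, at 76.6 and 35.5. All 4 were dim, with no reading above 81.4 on any array.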

How the results depend on the processing

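The count of probe sets at least 2-fold higher in gpa1, 1118, became 1726, and the count lower, 1054, became 1903, when the floor was set at the 15th percentile. A floor at the 45th percentile gave 951 and 651. At 1.5-fold they were 2221 and 3313, and at 3-fold 529 and 232. Median centring gave 1253 and 833, quantile normalization of the gpa1 arrays 1223 and 851, and a filter on dim probe sets 1070 and 919, each within 1.5 times the counts in the report. Centring raised the median log2 difference of measured probe sets by 0.08 and quantile normalization by 0.10. Among all family members, 37 calls were lost with the higher floor, 12 with centring and 8 with quantile normalization, while 57 were gained with the lower floor, 5 with centring and 8 with quantile normalization. Calls gained with the lower floor include GID1C, RR18, GLR2.8, nad1, CHR42, chr31 and PRA1.G1, from lists without a member past 2-fold above. They also include TRM22, TRM24 and TET12 on the lower side and GH9B17 on the higher side. CYP71B26 passed on the higher side with centring and with quantile normalization. No called gene named in the text changed sign. The calls lost with the higher floor include ATHSP22.0, FD, WRKY47, MYC4, ATMYC1, IAA30, NCRK, CML30, CHX16, CHX20, EXLA3, XTH26, ATPMEPCRB, ATPMEPCRD, TBL32, sks15, sks16, UGT76E11, UGT78D1, UGT85A4, CYP71B37, CYP78A9, TSC10B, ICL, NDB4, PDF1.2, PDF1.4, ndhF, IQD22, NET1B, TET9, PPR336, LSM3A, scpl50, scpl42 and SCPL27. With centring TMT1, CHX20, CYP71B5, CYP78A9, TSC10B, GSTU20, MSRB5, CaS, CHLM, IQD22, ATMAP65-6 and LSM3A were lost, and with quantile normalization CHX20, CYP71B5, CYP78A9, TSC10B, ndhF, IQD22, LSM3A and SCPL45. No paired analysis was possible because each group had 1 array, and for the same reason no array could be left out. Promoter motifs in either window or fold group were not run.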

Other observations

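Each nuclear chromosome held genes past 2-fold in both directions. Of the probe sets with 1 gene, between 3.68% (chromosome 2) and 4.54% (chromosome 4) were at least 2-fold higher in gpa1 plants with ABA, and between 3.27% (chromosome 2) and 4.49% (chromosome 4) at least 2-fold lower. On chromosome 4 the neighbours AT4G30460, AT4G30470 and AT4G30490 were all higher, with log2 differences from 2.00 to 3.22. Of 144 genes with at least 2 probe sets, 16 had a probe set past 2-fold, and AT1G22330 had all of its probe sets past 2-fold the same way, with log2 differences of -1.94 and -1. None had probe sets past 2-fold in opposite directions.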
